A study of Mus musculus with 686 samples.

Results

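The 4 miRNAs described here are the 3p arms mmu-miR-193a-3p, mmu-miR-193b-3p, mmu-miR-365-3p and mmu-miR-378a-3p. The choice was by name, for their known place in thermogenic fat, and was made with earlier results of these data known. They were 4 of 1964 miRNAs in the count table, and all 4 passed the filter on low counts in both extractions. The 686 small RNA libraries covered 13 tissues, all from female BALB/cAnNTac mice aged 3 or 8 months. FL mice lived on the International Space Station, HGC mice were kept on the ground in habitats matched to flight, and VGC mice were kept on the ground in standard vivarium cages. LAR (Live Animal Return) FL mice came back to Earth alive and were dissected days after splashdown, their ground controls were dissected under matching conditions, and tissues were snap frozen, with 114 FL, 113 HGC and 121 VGC libraries. TERM (ISS Terminal) mice were killed on the station or on Earth, and their carcasses were frozen whole and thawed for dissection, except that the spleen was taken fresh into RNA Later, with 115 FL, 114 HGC and 109 VGC libraries. The libraries came from 83 animals, and a group of 1 tissue, arm and extraction held 2 to 10 libraries. Brain of LAR and pancreas of TERM came from mice of 3 months alone.

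Brown fat (BAT) burns lipid to make heat through the uncoupling protein UCP1, whereas white fat stores it. The fat depots sampled here as white were the gonadal (GAT), subcutaneous (SCAT) and mesenteric (MAT) depots, and diaphragm and heart are striated muscles with high oxidative metabolism. In published work miR-193b and miR-365 share a precursor cluster that is raised in brown fat and has been tied to brown adipocyte differentiation, miR-193a and a second miR-365 gene form its paralogous cluster, and miR-378a lies within an intron of Ppargc1b, a coactivator of mitochondrial genes.

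The sequences are shown because the paralogues differ in the 3p arm of miR-193 but not in that of miR-365. They were taken from RefSeq (GRCm38.p6), written 5′ to 3′, with the seed (bases 2 to 8), the stretch that pairs with targets, in capitals.
mmu-miR-193a-3p: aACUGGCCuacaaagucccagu
mmu-miR-193b-3p: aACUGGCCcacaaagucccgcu
mmu-miR-365-3p: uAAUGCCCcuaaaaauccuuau
mmu-miR-365-1-5p: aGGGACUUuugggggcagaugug
mmu-miR-365-2-5p: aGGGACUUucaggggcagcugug
Counted from the 5′ end, miR-193a-3p and miR-193b-3p differed by U9C, A20G and G21C, so they had 1 seed in common, held by no other of the 1679 mature sequences in that table. Mir193a (chr11:79711969-79712034, plus strand) lay 14365 bases upstream of Mir365-2 (chr11:79726400-79726511, plus strand). Mir193b (chr16:13449523-13449601, plus strand) lay 4238 bases upstream of Mir365-1 (chr16:13453840-13453926, plus strand). The 3p arm of miR-365 was identical from both loci, so its counts cannot be assigned to either. The 5p arms could be told apart, by U10C, G11A and A19C from miR-365-1-5p to miR-365-2-5p.

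Libraries held 181393 to 30469295 miRNA counts, with a median of 3875781, and levels are given as counts per 1000000 miRNA counts (CPM). Libraries were compared with the tissue averages over 718 miRNAs that exclude the 4 members and the other arms of their precursors, and 167 of 686 libraries (24.3%) were closest to a tissue other than their label. The 21 such libraries among 60 of BAT were 8 in LAR (3 FL, 1 HGC, 4 VGC) and 13 in TERM (5 FL, 3 HGC, 5 VGC), and 46 of 57 MAT, 19 of 59 diaphragm, 15 of 58 SCAT, 10 of 50 heart and 7 of 60 GAT libraries were also closest to another tissue. Results are therefore given for all libraries and again for libraries closest to their own label (own-profile libraries). The 7 striated muscle miRNAs used as markers (such as miR-133a-3p) summed in LAR to 727, 110678 and 251246 CPM in BAT (lowest, median and highest), against 239, 9193 and 350843 CPM in GAT, 2994, 64045 and 624941 CPM in SCAT, 845, 2437 and 64025 CPM in MAT and 318, 394250 and 512504 CPM in diaphragm, and all 7 were higher in BAT than in white fat in both extractions. By median sum, though, SCAT of TERM (143720 CPM) stood above BAT of TERM (123442 CPM). Own-profile BAT libraries had higher median sums, 133093 CPM in LAR and 169931 CPM in TERM. Also higher in BAT than in white fat were 4 of 4 brain markers in both extractions and 2 of 2 liver markers in LAR. By contrast 4 of 5 epithelial markers were lower in BAT of LAR. The median brain marker sum in LAR was 187 CPM in BAT, above GAT (110 CPM) and SCAT (114 CPM) but below MAT (312 CPM). That of liver markers was 552 CPM in BAT, above GAT (277 CPM) and MAT (378 CPM) but below SCAT (609 CPM). The highest BAT sums were 58846 CPM (brain) and 290442 CPM (liver). The part of such libraries and of muscle RNA in the results below was not tested beyond the values given. In bulk tissue, fewer cells of a type and less RNA per cell cannot be told apart.

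Of the 4 miRNAs, miR-378a-3p was the most abundant and had its highest tissue median in BAT. In the 30 BAT libraries of LAR it stood at 18876, 203786 and 346130 CPM (lowest, median and highest), a median of 20.4% of all miRNA counts. In the 30 BAT libraries of TERM it stood at 7450, 178000 and 460777 CPM. It ranked first among all miRNAs in BAT in both extractions. Heart came next in LAR at a median of 91736 CPM, ahead of diaphragm at 86845 CPM, GAT at 85722 CPM, SCAT at 55505 CPM, thymus at 54944 CPM and kidney at 42813 CPM. MAT (28333 CPM), liver (20787 CPM), pancreas (20509 CPM) and spleen (13526 CPM) followed, and lung (5454 CPM) and brain (4019 CPM) were lowest, so that the highest and lowest medians differed 50.7-fold. BAT against heart was the only step between neighbours in this order whose medians differed by more than the spread of the libraries, and in TERM no step did.

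The other 3p arm with its highest median in BAT in both extractions was miR-193b-3p, at a far lower level. It stood at 10.8, 2179 and 6434 CPM in BAT of LAR and at 18.4, 1464 and 4794 CPM in BAT of TERM. GAT followed in LAR at 5.25, 968 and 3421 CPM, then SCAT at 72.2, 552 and 1621 CPM. BAT libraries overlapped those of both depots. Thymus had a median of 480 CPM (479.6), MAT 209 CPM, diaphragm 151 CPM, brain 149 CPM, heart 71.9 CPM and kidney 65.6 CPM. Lung (59.1 CPM), pancreas (55.1 CPM), spleen (27.2 CPM) and liver (10.5 CPM) were lowest, a 208-fold range of tissue medians. Of the 12 steps in this order, brain over heart alone exceeded the spread.

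For miR-365-3p, BAT and GAT had the highest medians, close to each other. BAT of LAR stood at 173, 8494 and 18679 CPM and GAT of LAR at 337, 7946 and 27956 CPM, whereas in TERM the GAT median (7293 CPM) was above that of BAT (5930 CPM). SCAT followed in LAR at a median of 4599 CPM. Thymus (1975 CPM), kidney (1888 CPM), MAT (1733 CPM), pancreas (1709 CPM), liver (1676 CPM), lung (1460 CPM) and diaphragm (1185 CPM) lay close together, above heart (514 CPM), brain (481 CPM) and spleen (199.8 CPM). In LAR the steps from SCAT to thymus and from diaphragm to heart exceeded the spread of the libraries.

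The levels of miR-193a-3p were not highest in BAT. Pancreas led in LAR at 1794, 9968 and 35842 CPM, followed by MAT at a median of 8581 CPM, liver at 8444 CPM and GAT at 5209 CPM, and BAT was in place 5 at 1483, 4847 and 9115 CPM. In TERM pancreas stood at 1369, 22610 and 93551 CPM (n = 11) and BAT was in place 4 at 342, 3636 and 10080 CPM. SCAT (2999 CPM), kidney (2809 CPM), thymus (1863 CPM), lung (1184 CPM) and spleen (649 CPM) followed BAT in LAR. Diaphragm (326 CPM), heart (112 CPM) and brain (72.6 CPM) were lowest. No step between neighbours exceeded the spread in either extraction. In own-profile libraries of LAR the MAT median was 4425 CPM (n = 4), below liver (8633 CPM), BAT (5728 CPM) and GAT (5081 CPM).

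**Figure D1:**
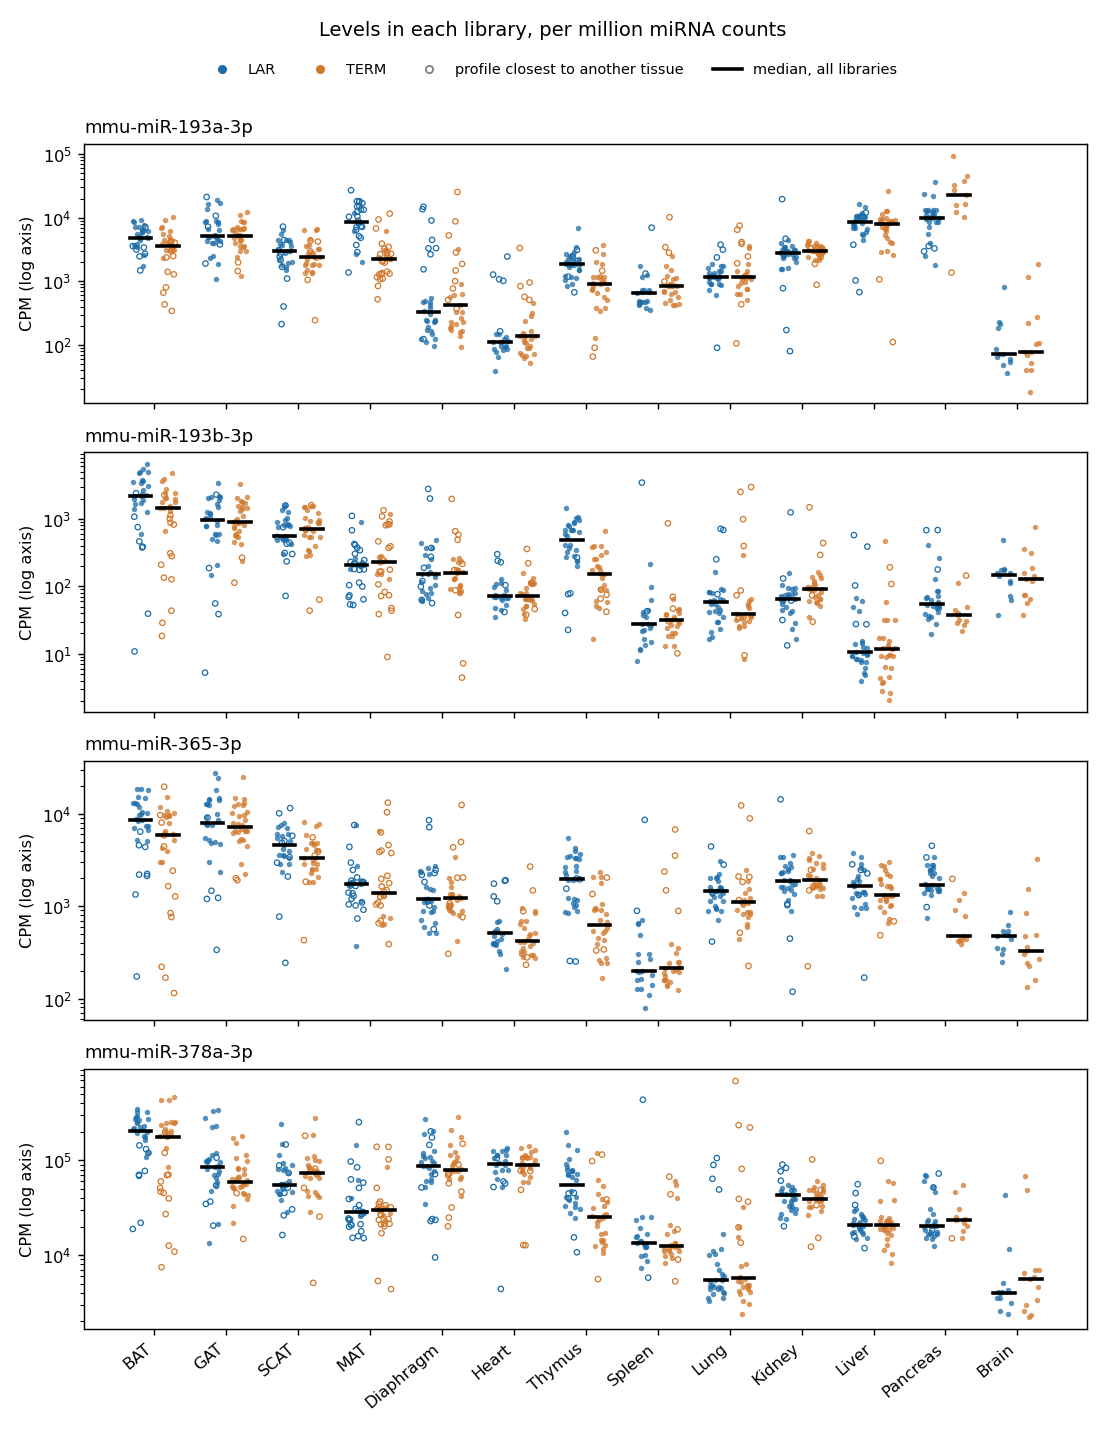
Level of each miRNA (CPM, log axis) in every library of the 13 tissues, with blue points for LAR, orange points for TERM, open points for libraries closest to another tissue and a black line at the median. BAT has the highest median of miR-378a-3p (203786 CPM in LAR) and miR-193b-3p (2179 CPM), whereas miR-193a-3p is highest in pancreas (9968 CPM).

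In the 22 own-profile BAT libraries of LAR the lowest level of miR-378a-3p rose to 107906 CPM, that of miR-193b-3p to 599.7 CPM and that of miR-365-3p to 5137 CPM. Their medians were 227322, 2533 and 10014 CPM, respectively. The lowest levels in the 17 own-profile BAT libraries of TERM were 85934, 665 and 2999 CPM. The lowest values above thus came from libraries closest to another tissue. None of the 4 miRNAs was at 0 in any library.

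The first comparison was BAT against the mean of the 3 white depots, with arm in the model (edgeR quasi-likelihood test, Benjamini-Hochberg adjustment over all miRNAs tested). In LAR 3 of the 4 miRNAs were higher in BAT, where 14.8% of all miRNAs tested were higher. The difference for miR-193b-3p was 2.43 on the log2 scale (SE 0.24, edgeR adjusted p = 2.29e-16), that is 5.40-fold. The miR-378a-3p difference was 1.83 (SE 0.21, edgeR adjusted p = 2.59e-13), that is 3.55-fold, and the miR-365-3p difference was 1.41 (SE 0.20, edgeR adjusted p = 1.3e-09), that is 2.67-fold. For miR-193a-3p the log2 difference was 0.16 (SE 0.25, edgeR adjusted p = 0.721). Over the alternative settings the LAR differences ran from 0.82 to 1.72 (miR-365-3p), 1.82 to 2.72 (miR-193b-3p) and 1.44 to 2.10 (miR-378a-3p).

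TERM gave the same 3 calls, where 19.2% of all miRNAs were higher in BAT. The log2 differences were 1.86 for miR-378a-3p (SE 0.21, edgeR adjusted p = 3.5e-13), 1.59 for miR-193b-3p (SE 0.25, edgeR adjusted p = 5.26e-08) and 0.93 for miR-365-3p (SE 0.22, edgeR adjusted p = 0.000313). The miR-365-3p call in TERM was lost without TMM factors (0.50, edgeR adjusted p = 0.104) and without MAT (0.52, edgeR adjusted p = 0.081). For miR-193a-3p the difference was 0.47 (SE 0.27, edgeR adjusted p = 0.22). LAR and TERM effects were not tested against each other.

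Own-profile libraries changed the call of miR-193a-3p alone. It was then higher in BAT than in white fat by 0.61 on the log2 scale in LAR (SE 0.22, edgeR adjusted p = 0.0307) and by 1.05 in TERM (SE 0.22, edgeR adjusted p = 7.69e-05). The differences of miR-193b-3p became 2.62 and 2.28, those of miR-365-3p 1.67 and 1.60, and those of miR-378a-3p 1.92 and 2.59. Within single plates of LAR, miR-193b-3p was higher in BAT in 6 of 6 plates (0.21 to 2.49) and miR-365-3p in 6 of 6 (0.27 to 1.38). There miR-378a-3p was higher in 6 of 6 (0.50 to 2.26) and miR-193a-3p in 3 of 6 (-0.69 to 0.12). In TERM the counts were 5, 5, 6 and 4 of 7 plates in the same order.

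The depots differed in how far they stood from BAT. Against GAT, miR-193b-3p was higher in BAT by 1.59 in LAR and 1.15 in TERM, and miR-378a-3p by 1.24 and 1.85 (all log2, edgeR quasi-likelihood test), where 17.1% and 26.9% of all miRNAs were higher. The log2 difference of miR-365-3p from GAT was 0.42 in LAR (SE 0.26, edgeR adjusted p = 0.209) and 0.17 in TERM (edgeR adjusted p = 0.695). In own-profile libraries it was 0.61 (edgeR adjusted p = 0.0072) and 0.52 (edgeR adjusted p = 0.0367). Against GAT, miR-193a-3p gave -0.10 in LAR (edgeR adjusted p = 0.845) and 0.09 in TERM.

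Against SCAT, all 4 miRNAs were higher in BAT of LAR, by 1.06 (miR-193a-3p), 2.05 (miR-193b-3p), 1.22 (miR-365-3p) and 1.65 (miR-378a-3p), where 12.6% of all miRNAs were higher. In TERM miR-193b-3p (1.10, edgeR adjusted p = 0.0127), miR-365-3p (0.87, edgeR adjusted p = 0.0198) and miR-378a-3p (1.19, edgeR adjusted p = 0.00133) were higher, against a background of 11.6%. MAT stood furthest from BAT for miR-193b-3p (3.67 in LAR and 2.52 in TERM), miR-365-3p (2.60 and 1.74) and miR-378a-3p (2.60 and 2.55), where 16.3% and 13.1% of all miRNAs were higher. The miR-193a-3p differences from MAT were -0.47 (edgeR adjusted p = 0.303) and 0.75 (edgeR adjusted p = 0.122). MAT had 24 of 28 LAR libraries closest to another tissue, 19 of them to pancreas, the tissue with the highest miR-193a-3p, and 22 of 29 TERM libraries, 11 of them to spleen and 2 to pancreas. All of these comparisons share the BAT libraries.

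Against muscle (the mean of diaphragm and heart) miR-378a-3p gave the smallest of the 4 differences, and miR-193a-3p was called. In LAR miR-193b-3p was higher in BAT by 3.54 on the log2 scale (SE 0.29), that is 11.6-fold, miR-193a-3p by 2.91 (SE 0.28) and miR-365-3p by 2.79 (SE 0.23), where 15.8% of all miRNAs were higher. In TERM the differences were 3.22, 2.31 and 2.38, against a background of 15.7%. For miR-378a-3p the difference was 0.61 in LAR (SE 0.24, edgeR adjusted p = 0.0443) and 0.61 in TERM (SE 0.24, edgeR adjusted p = 0.0471). With the animal as a block, which pairs the tissues of a mouse, miR-378a-3p missed the threshold in both extractions (0.53, edgeR adjusted p = 0.133, and 0.54, edgeR adjusted p = 0.097). In own-profile libraries the LAR differences were 4.67 (miR-193a-3p), 4.33 (miR-193b-3p), 3.48 (miR-365-3p) and 0.78 (miR-378a-3p, edgeR adjusted p = 0.0027). Within plates of LAR, each of the 4 miRNAs was higher in BAT in 6 of 6. In TERM miR-193a-3p was higher in 7 of 7 plates and the others in 6 of 7, and the lowest plate value of miR-378a-3p was -1.55.

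Against heart alone the log2 differences in LAR were 4.09 (miR-193a-3p), 4.34 (miR-193b-3p) and 3.48 (miR-365-3p), each called where 11.4% of all miRNAs were higher. That of miR-378a-3p was 0.70 (edgeR adjusted p = 0.0775). Against diaphragm, where 15.8% of all miRNAs were higher, they were 1.73, 2.75 and 2.10, and that of miR-378a-3p was 0.51 (edgeR adjusted p = 0.143). TERM gave the same calls, with 3.64, 3.72, 3.10 and 0.58 (edgeR adjusted p = 0.102 for miR-378a-3p) against heart, where 21.5% were higher, and 0.98, 2.71, 1.66 and 0.64 (edgeR adjusted p = 0.0952) against diaphragm, where 9.80% were higher. In own-profile libraries miR-378a-3p was called against both, by 0.87 (heart) and 0.69 (diaphragm) in LAR and 1.09 and 1.00 in TERM. Muscle was itself lower than white fat in the first 3 miRNAs, with LAR differences of -2.75 (miR-193a-3p), -1.11 (miR-193b-3p) and -1.37 (miR-365-3p) where 18.8% of all miRNAs were lower. It was higher in miR-378a-3p by 1.22, where 23.5% were higher, and TERM gave the same 4 calls (-1.84, -1.62, -1.46 and 1.25), where 15.9% were lower and 24.4% higher. By these estimates miR-378a-3p ran in the order BAT, muscle, white fat, its step from BAT to muscle being lost under the animal block and also with plate as a covariate in LAR (0.45, edgeR adjusted p = 0.163) and with no filter on low counts in TERM (0.60, edgeR adjusted p = 0.064), and miR-193b-3p ran in the order BAT, white fat, muscle.

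**Figure D2:**
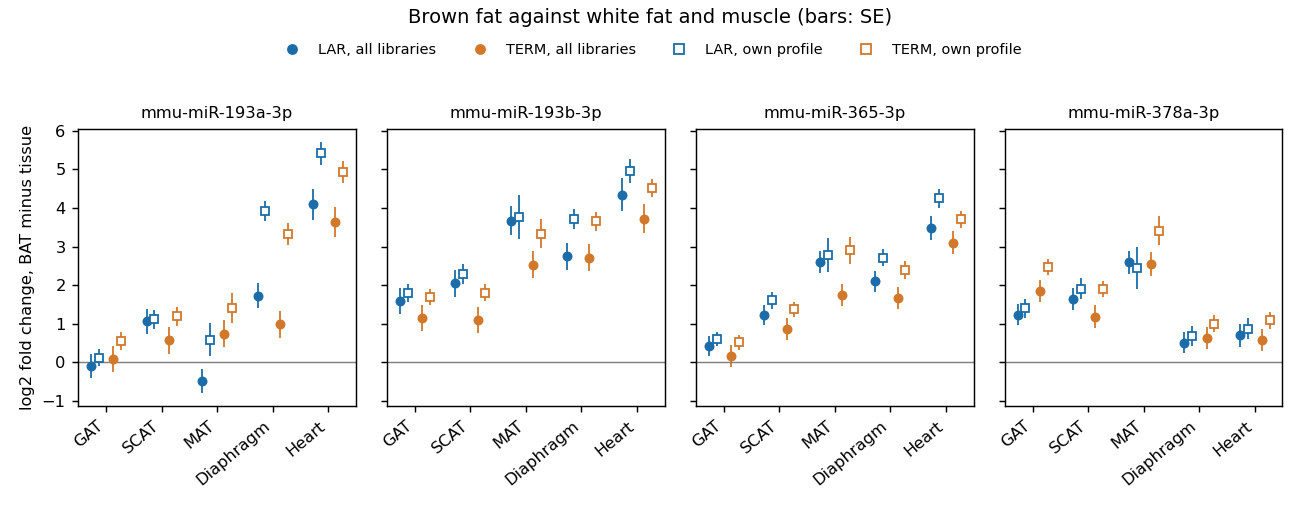
Log2 fold change of each miRNA in BAT against GAT, SCAT, MAT, diaphragm and heart with its standard error, for all libraries (circles) and own-profile libraries (open squares). Differences of miR-193b-3p from heart reach 4.34 in LAR, whereas those of miR-378a-3p from diaphragm and heart lie between 0.51 and 0.70 in all libraries and between 0.69 and 1.09 in own-profile libraries.

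Comparing BAT with another tissue of the same mouse sets aside differences between animals. Deviations of tissues of the same mouse were nearly uncorrelated, though (median 0.032 in LAR and 0.041 in TERM). In LAR miR-378a-3p was higher in BAT than in GAT in 23 of 30 mice (median log2 difference 1.18), than in SCAT in 26 of 29 (1.85) and than in MAT in 28 of 28 (2.26). For miR-193b-3p the counts were 22 of 30 (GAT), 23 of 29 (SCAT) and 25 of 28 (MAT). For miR-365-3p they were 13 of 30, 22 of 29 and 26 of 28, and the median difference from GAT was -0.08. Of the 30 mice, 12 had more miR-193a-3p in BAT than in GAT, with a median difference of -0.45. In TERM miR-193b-3p was higher in BAT in 16 of 30 mice against GAT (median 0.08), 19 of 29 against SCAT and 22 of 29 against MAT. The TERM counts against GAT were 12 of 30 for miR-365-3p (-0.75) and 9 of 30 for miR-193a-3p (-0.77). Where both libraries were own-profile, the TERM counts of miR-193b-3p were 11 of 15 (GAT) and 14 of 15 (SCAT).

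Against muscle of the same mouse, miR-193a-3p was higher in BAT of LAR than in diaphragm in 24 of 30 mice and than in heart in 12 of 12. The counts for miR-193b-3p were 26 of 30 and 11 of 12, those for miR-365-3p 26 of 30 and 12 of 12, and those for miR-378a-3p 25 of 30 and 10 of 12. In TERM miR-378a-3p was higher in BAT than in GAT in 22 of 30 mice, than in SCAT in 20 of 29, than in diaphragm in 19 of 29 and than in heart in 18 of 28. Where both libraries of the mouse were own-profile, the TERM counts of miR-378a-3p for GAT and SCAT were 15 of 15 each. Those for diaphragm and heart were 10 of 11 and 14 of 15. Over all TERM libraries, the counts for diaphragm were 23 of 29 (miR-193a-3p), 25 of 29 (miR-193b-3p) and 23 of 29 (miR-365-3p). For heart they were 26, 25 and 25 of 28 in the same order.

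**Figure D3:**
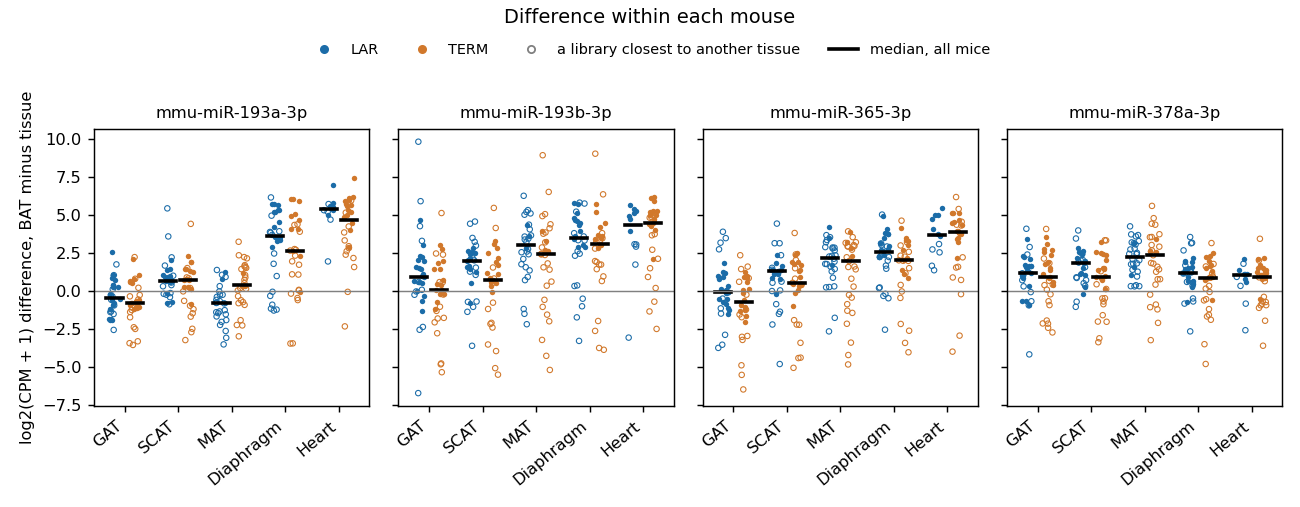
Difference of log2(CPM + 1) between BAT and 5 other tissues of the same mouse, 1 point a mouse, open where either library was closest to another tissue, with a line at the median over all mice. For miR-378a-3p the BAT library was the higher in 28 of 28 LAR mice against MAT, whereas miR-365-3p against GAT is spread around 0 (13 of 30).

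The opposite arms of the precursors give a second reading of each gene, at much lower counts. Over the LAR tissues the 5p arm was 0.878% to 5.30% of both arms of miR-193a, 1.92% to 5.81% of miR-193b, 0.1755% to 0.668% of miR-365 and 0.0831% to 0.191% of miR-378a. In BAT of LAR the median was 331 CPM for miR-378a-5p, 163 CPM for miR-193a-5p and 50.2 CPM for miR-193b-5p. The 5p arm of miR-378a was higher in BAT than in white fat by 2.65 in LAR (edgeR adjusted p = 1.6e-23) and 1.84 in TERM (edgeR adjusted p = 2.23e-13). That of miR-193b was higher by 1.50 (edgeR adjusted p = 3.49e-06) and 1.24 (edgeR adjusted p = 0.000182), and that of miR-193a gave -0.06 (edgeR adjusted p = 0.921) and 0.54 (edgeR adjusted p = 0.14). In these comparisons with white fat the 5p arms of miR-193a, miR-193b and miR-378a fell on the same side of the threshold as their 3p arms. Against muscle in TERM miR-378a-5p did not (0.42, edgeR adjusted p = 0.177).

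The 5p arms of the miR-365 loci, printed above, did not move together against white fat. The arm from chromosome 16, beside Mir193b, was higher in BAT than in white fat by 1.38 on the log2 scale in LAR (SE 0.30, edgeR adjusted p = 9.65e-05) and by 1.10 in TERM (SE 0.32, edgeR adjusted p = 0.00472). For the arm from chromosome 11, beside Mir193a, the differences were -0.72 (SE 0.29, edgeR adjusted p = 0.0582) and -0.30 (SE 0.30, edgeR adjusted p = 0.525). Against muscle both 5p arms were higher in BAT, where 15.8% of all miRNAs were higher in LAR and 15.7% in TERM. The differences were 2.64 and 2.57 for miR-365-1-5p. For miR-365-2-5p they were 1.64 (edgeR adjusted p = 2.65e-06) and 1.99 (edgeR adjusted p = 2.28e-08). Counts were few, with 878 of miR-365-1-5p and 1408 of miR-365-2-5p over the 30 BAT libraries of LAR, and miR-365-1-5p was at 0 in 225 of all libraries.

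The share of miR-365-1-5p in the sum of both 5p arms was therefore taken in libraries with at least 5 counts of the pair, a measure chosen after values had been seen. In LAR it was 36.4% ± 12.0 in BAT (SD, n = 29), 10.7% ± 6.57 in GAT (n = 29), 16.7% ± 7.55 in SCAT (n = 28) and 9.97% ± 8.68 in MAT (n = 16). It was 24.4% ± 21.2 in diaphragm (n = 28) and 27.6% ± 15.2 in heart (n = 14). Since the 5p differences above prompted this measure and use the same counts, it is a description, with no test.

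In TERM the share was 32.9% ± 17.6 in BAT (n = 27), 13.9% ± 8.25 in GAT (n = 30), 24.4% ± 13.1 in SCAT (n = 29), 12.8% ± 12.7 in MAT (n = 27), 20.9% ± 18.5 in diaphragm (n = 27) and 28.0% ± 18.8 in heart (n = 17). The BAT mean stood above each of these 5 means in both extractions, nearest to heart, and by less than the SD of heart. In own-profile libraries BAT held 40.2% ± 8.79 in LAR (n = 22) and 41.9% ± 11.7 in TERM (n = 17). There heart held 35.2% ± 12.1 in LAR (n = 9) and 27.5% ± 18.5 in TERM (n = 14), and SCAT 18.0% ± 7.40 and 24.8% ± 13.1. Within plates of LAR the BAT share was the higher in 6 of 6 plates against GAT, 6 of 6 against SCAT and 4 of 4 against MAT. In TERM it was the higher in 5 of 5, 4 of 6 and 5 of 6 plates. Elsewhere in LAR the mean share was 43.4% in brain, 32.6% in thymus, 7.64% in lung, 3.66% in kidney and 1.42% in liver.

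**Figure D4:**
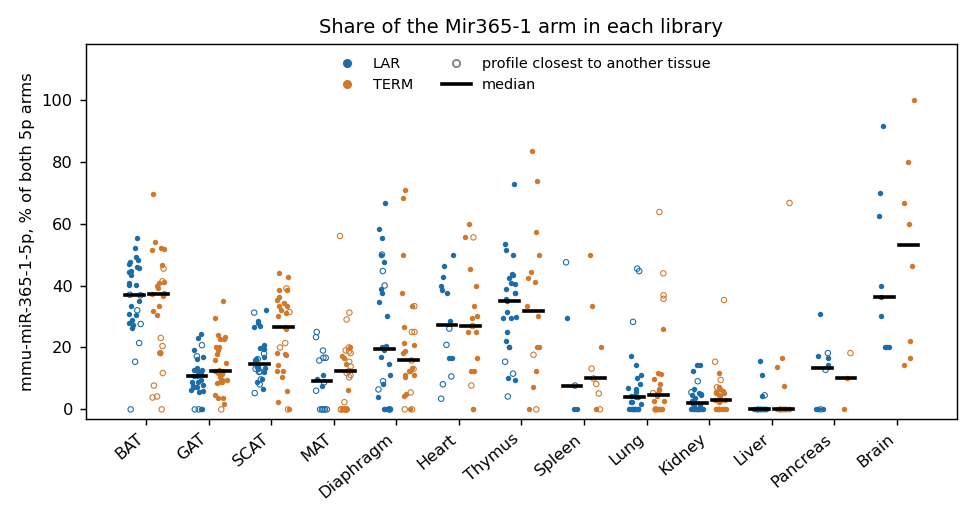
Share of miR-365-1-5p (chromosome 16) in the counts of both miR-365 5p arms, in percent, per library with at least 5 counts of the pair in the 13 tissues of LAR and TERM. The BAT mean is 36.4% in LAR, against 10.7% in GAT and 1.42% in liver.

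The 3p arms of miR-193 also differ between the loci, and hold far more counts. In LAR miR-193b-3p made up a median of 31.0% of both miR-193 3p arms in BAT, 18.8% in SCAT, 14.4% in GAT and 1.81% in MAT. The MAT share was 8.67% in the 4 own-profile libraries of LAR and 10.4% over all TERM libraries, and the BAT share was 33.0% in own-profile libraries of LAR and 26.1% over all TERM libraries. In LAR it made up 62.8% in brain, 39.8% in heart, 38.2% in diaphragm and 22.6% in thymus, against 2.30% in kidney, 0.484% in pancreas and 0.126% in liver. By median the BAT share was thus below those of diaphragm and heart in LAR, with overlap. Over all TERM libraries diaphragm stood at 24.8% and heart at 36.3%. In own-profile libraries of TERM BAT stood at 31.2%, below diaphragm (34.7%) and heart (38.9%). Brain, heart and diaphragm were also the tissues with the lowest medians of miR-193a-3p.

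Over the 13 LAR tissue medians, a description in which the tissues share animals and plates, the pairs of members had Pearson's r of 0.70 (miR-193b-3p and miR-365-3p), 0.66 (miR-193a-3p and miR-365-3p), 0.58 (miR-193b-3p and miR-378a-3p), 0.57 (miR-365-3p and miR-378a-3p), 0.24 (miR-193a-3p and miR-378a-3p) and 0.13 (miR-193a-3p and miR-193b-3p). Of 349 miRNAs at 100 CPM or more, those most like miR-378a-3p were miR-378c (0.99), miR-378b (0.97) and miR-378a-5p (0.97). Reads of the near-identical miR-378a-3p, miR-378b and miR-378c can be shared out differently by counting, whereas miR-378a-5p is the opposite arm. The miRNAs most like miR-193b-3p were miR-708-5p (0.80), miR-100-5p (0.74) and miR-10b-5p (0.71). For miR-193a-3p they were miR-203-3p (0.95), miR-193a-5p (0.91) and miR-152-3p (0.81), and for miR-365-3p they were miR-193a-5p (0.88), miR-203-3p (0.78) and miR-193b-3p (0.70).

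Other miRNAs reported to act on brown or beige fat were read from lists of 13 described as promoting it and 12 described as restraining it. Of the 13, 7 were higher and 1 lower in BAT than in white fat in LAR (median log2 difference 0.48, against 0.03 over all miRNAs tested), and 6 were higher and 0 lower in TERM (0.49, against 0.17). Of all miRNAs tested 14.8% were higher and 9.46% lower in LAR, and 19.2% were higher and 4.45% lower in TERM. Among them miR-182-5p was higher by 2.46 (edgeR adjusted p = 3.5e-09) and miR-129-5p by 1.68 (edgeR adjusted p = 2.66e-07) in LAR. The one that was lower was miR-196a-5p, a HOX cluster miRNA, at -4.10 (edgeR adjusted p = 3.38e-06), with medians of 4.38 CPM in BAT and 3013 CPM in GAT, whereas in TERM its difference was 0.28 (edgeR adjusted p = 0.765). Of the 12, 3 were higher and 1 lower in LAR (median -0.14) and 5 higher and 3 lower in TERM (0.16). The largest rises were those of the muscle miRNAs miR-133a-3p (2.36, edgeR adjusted p = 4.49e-08) and miR-133b-3p (2.32, edgeR adjusted p = 1.87e-08), which are also among the 7 muscle markers above, and miR-214-3p was lower (-0.76, edgeR adjusted p = 0.00388).

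The study's own contrast was flight. In BAT none of the 4 miRNAs was called between any arms, in 24 tests each by edgeR and DESeq2, and 0 had an unadjusted p under 0.05. Of all miRNAs 4.36% were called between FL and HGC in BAT of LAR, and 0.00% in the other 5 BAT comparisons of arms. In LAR miR-378a-3p stood at 18876, 187610 and 327318 CPM in FL (n = 10), at 107906, 223495 and 326744 CPM in HGC and at 68659, 179680 and 346130 CPM in VGC. The level of miR-193b-3p was 10.8, 2080 and 4939 CPM in FL, 599.7, 2271 and 6434 CPM in HGC and 375, 2079 and 5564 CPM in VGC. The arms overlapped over most of their range for both.

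For miR-365-3p the BAT levels were 173, 9805 and 15344 CPM in FL, 4573, 8011 and 18414 CPM in HGC and 2130, 6953 and 18679 CPM in VGC. For miR-193a-3p the medians were 5274, 5149 and 4847 CPM. The FL minus HGC log2 differences in BAT of LAR were 0.15 (miR-193a-3p, SE 0.33), -0.26 (miR-193b-3p, SE 0.63), -0.14 (miR-365-3p, SE 0.50) and -0.34 (miR-378a-3p, SE 0.41), with edgeR adjusted p from 0.698 to 0.941. In own-profile libraries they were 0.23, 0.20, 0.26 and 0.05, and in TERM over all libraries they were -0.05, -0.16, -0.25 and -0.29. The 95% interval of the difference in LAR ran from -1.50 to 0.97 for miR-193b-3p and from -1.14 to 0.45 for miR-378a-3p.

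Over the 104 combinations of member, tissue and extraction, 1 was called between FL and HGC, where 0.630% of all miRNA tests were called, 1 between FL and VGC (background 0.459%) and 2 between HGC and VGC (background 0.131%). At an unadjusted p under 0.05 they numbered 18 (17.3%), 12 (11.5%) and 15 (14.4%), against 9.98%, 9.75% and 9.48% of all miRNA tests. By a Wilcoxon test on CPM 0 were called in each contrast, where 0.0655%, 0.00% and 0.00570% of all miRNA tests were called, and by a rule of log2 ratio and effect size on CPM 3, 3 and 4 were called, where 1.83%, 2.14% and 1.71% were. These contrasts share their groups. Each of the 4 calls was lost in own-profile libraries.

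The FL and HGC call was miR-378a-3p in lung of LAR, higher by 2.57 on the log2 scale in FL (SE 0.65, edgeR adjusted p = 0.0306), in a comparison where 1.55% of all miRNAs were called. It stood at 3907, 8008 and 105482 CPM in FL, 3484, 4609 and 9915 CPM in HGC and 3297, 5381 and 63838 CPM in VGC, so the groups overlapped and a few libraries were far above the rest. In own-profile libraries, which leave out 2 FL, 0 HGC and 2 VGC libraries, the difference was 0.58 (edgeR adjusted p = 0.422). The muscle marker sum was 2083, 14614 and 331384 CPM in FL and 3622, 5446 and 22429 CPM in HGC, and 5 of the 7 muscle markers were also called higher in FL. The call was kept in 2 of 11 other settings (0.55 to 2.57) and in 22 of 30 fits that left out 1 library. It was lost without FL 14 (1.67, edgeR adjusted p = 0.276), without FL 5 (2.29) and without any of HGC 1, 2, 12, 13, 14 and 16 (2.48 to 2.57).

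The FL and VGC call was miR-193b-3p in pancreas of LAR, higher by 2.10 in FL (SE 0.55, edgeR adjusted p = 0.0399), in a comparison where 1.55% of all miRNAs were called. The levels were 27.7, 70.0 and 682 CPM in FL, 33.2, 59.0 and 416 CPM in HGC and 19.9, 48.0 and 84.7 CPM in VGC, and FL and VGC overlapped. In own-profile libraries the difference was 0.55 (edgeR adjusted p = 0.808). The muscle marker sum was 1356, 6286 and 52456 CPM in FL and 877, 2232 and 8505 CPM in VGC, and 0 of the 7 muscle markers were called, with a median log2 difference of 2.19. The call was kept in 1 of 11 other settings (0.31 to 2.10) and in 15 of 28 fits without 1 library, and was lost without FL 3 (1.69, edgeR adjusted p = 0.203), FL 13 (1.62), FL 16 (1.90), HGC 16 (1.94) or any of VGC 1, 2, 3, 4, 5, 12, 13, 14 and 16 (1.90 to 2.18).

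Both HGC and VGC calls were in spleen of LAR, where 0.443% of all miRNAs were called, and both rested on a single library. The HGC minus VGC log2 difference was 5.02 for miR-193b-3p (SE 1.12) and 3.45 for miR-378a-3p (SE 0.76), each with an edgeR adjusted p of 0.0438. The level of miR-378a-3p was 8719, 14514 and 436395 CPM in HGC, 5772, 13072 and 23238 CPM in VGC and 12118, 13811 and 25143 CPM in FL. Without HGC 16, a library closest to BAT, the differences were -0.31 and 0.07, each with an edgeR adjusted p of 1. None of the 7 muscle markers was called there, with a median log2 difference of 2.82. The calls were kept in 2 of 10 other settings each and in 10 of 21 fits without 1 library, and were also lost without FL 12 or any of VGC 5, 8, 9, 12, 13, 16, 17, 19 and 20.

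**Figure D5:**
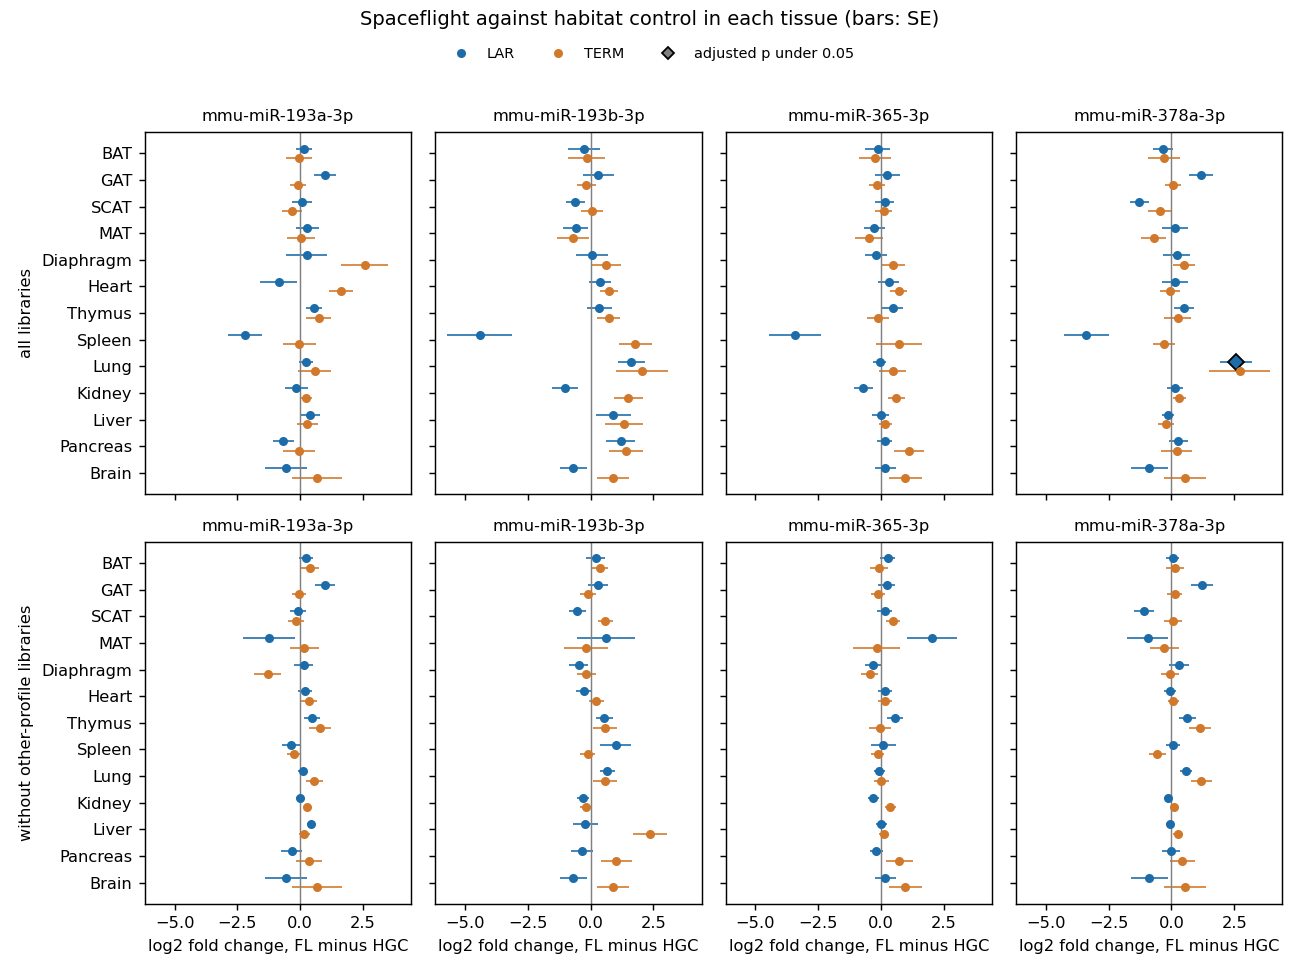
FL minus HGC log2 fold change with its standard error for the 4 miRNAs in 13 tissues, for all libraries (top row) and own-profile libraries (bottom row), with a diamond where the edgeR adjusted p was under 0.05. The lone diamond is miR-378a-3p in lung of LAR (2.57), which is 0.58 in own-profile libraries.

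Mice of 8 months were compared with mice of 3 months over 96 combinations, of which 4 were called, where 0.688% of all miRNA tests were called, and 23 had an unadjusted p under 0.05 (10.9% of all miRNA tests). None was in BAT, where the LAR differences were 0.24, 0.33, 0.34 and 0.12 in the order used above. In thymus of TERM miR-378a-3p was higher at 8 months by 1.55 (SE 0.40, edgeR adjusted p = 0.0293), where 2.30% of all miRNAs were called. It stood at 10440, 17088 and 38638 CPM at 3 months (n = 13) and 5569, 35923 and 118745 CPM at 8 months (n = 15), with overlap. The call was kept in 7 of 7 other settings (1.09 to 1.64), own-profile libraries included, and in 21 of 28 fits without 1 library. It was lost without any of VGC 1 and 2, FL 11 and HGC 1, 2, 3 and 11 (1.20 to 1.58).

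In own-profile libraries 7 of 88 combinations were called by age, where 0.862% of all miRNA tests were. Thymus of TERM then held all 4 miRNAs, each higher at 8 months, where 1.41% of all miRNAs were called, by 1.42 (miR-365-3p, edgeR adjusted p = 0.0097), 1.26 (miR-193b-3p, edgeR adjusted p = 0.0455), 1.24 (miR-378a-3p, edgeR adjusted p = 0.0179) and 1.15 (miR-193a-3p, edgeR adjusted p = 0.0399). Over all libraries the differences not called by edgeR were 0.98 (miR-365-3p), 1.10 (miR-193b-3p) and 0.69 (miR-193a-3p), with edgeR adjusted p from 0.085 to 0.412, and DESeq2 called the first (adjusted p = 0.0247) and the second (adjusted p = 0.0159). In thymus of LAR miR-365-3p was called in own-profile libraries (0.76, edgeR adjusted p = 0.0377, where 9.02% of all miRNAs were called) and not over all libraries (0.66, edgeR adjusted p = 0.299). The other 2 own-profile calls were in brain of TERM, whose libraries are all own-profile.

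In MAT of TERM miR-193a-3p was lower at 8 months, by -1.29 (SE 0.38, edgeR adjusted p = 0.0313), where 7.35% of all miRNAs were called. It stood at 521, 2709 and 11554 CPM at 3 months (n = 15) and at 1075, 1693 and 6071 CPM at 8 months (n = 14), so the groups overlapped. Of the 29 libraries 22 were closest to another tissue. The call was kept in 3 of 6 other settings (-1.28 to -0.72) and 23 of 29 fits without 1 library, and was lost without VGC 5, VGC 12, HGC 11, HGC 13, FL 2 or FL 14 (-0.95 to -1.27). In brain of TERM miR-193a-3p (2.08, SE 0.47, edgeR adjusted p = 0.00147) and miR-378a-3p (2.10, SE 0.38, edgeR adjusted p = 3.29e-05) were higher at 8 months, where 1.71% of all miRNAs were called. The latter stood at 2226, 5074 and 6933 CPM at 3 months (n = 8) and 2318, 7023 and 68267 CPM at 8 months (n = 5). Without FL 17 the differences were 0.56 and 0.80, and without HGC 18 they were 0.95 and 1.16, with both calls lost each time. Each was called in 3 of 7 other settings, and with plate as a covariate miR-378a-3p turned to -0.59 (edgeR adjusted p = 1).

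For a difference of the flight effect between ages, 0 of 96 combinations were called by edgeR, where 0.432% of all miRNA tests were called, and 15 had an unadjusted p under 0.05 (8.65% of all miRNA tests). By DESeq2, where 1.20% of all miRNA tests were called, 2 were called, both in lung of TERM. They were miR-378a-3p (7.46, DESeq2 adjusted p = 0.00594) and miR-193a-3p (4.05, DESeq2 adjusted p = 0.0285). By edgeR these were 6.89 (adjusted p = 0.0883) and 3.38 (adjusted p = 0.159), and in own-profile libraries -0.42 and 0.027 (edgeR adjusted p = 1 for both). In own-profile libraries, where 0.236% of all miRNA tests were called, the lone call was miR-193a-3p in diaphragm of TERM (3.34, edgeR adjusted p = 0.0041). Its difference over all libraries was -3.32 (edgeR adjusted p = 0.33). The own-profile fit there left out 3 of 10 FL and 5 of 10 HGC libraries, over both ages. Own-profile levels there were 91.4, 232 and 3184 CPM over all arms (n = 19). Fits without a single library were not run for this call.

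LAR and TERM differed in time, in anaesthesia, in how tissue was preserved and, for FL mice, in the return to Earth, which cannot be told apart. Of 52 combinations of member and tissue, 8 were called, where 4.65% of all miRNA tests were called, and 14 had an unadjusted p under 0.05 (16.9% of all miRNA tests). In BAT the LAR minus TERM differences were 0.51, 0.76, 0.66 and 0.28, with edgeR adjusted p from 0.361 to 0.734. Thymus held 3 of the calls, where 10.4% of all miRNAs were called. LAR was higher there in miR-193b-3p by 1.50 (SE 0.30, edgeR adjusted p = 0.00202), in miR-365-3p by 1.26 (SE 0.26, edgeR adjusted p = 0.00207) and in miR-193a-3p by 0.81 (SE 0.25, edgeR adjusted p = 0.0301), in 7 of 7 other settings each. The thymus medians of miR-193b-3p were 480 CPM (479.6) in LAR and 150.1 CPM in TERM, with overlap. The median muscle marker sum was 9959 CPM in LAR and 2985 CPM in TERM, but in the edgeR fit 0 of the 7 muscle markers were called higher in LAR and 2 lower, with a median log2 difference of -1.08, and the highest sum was in TERM (382327 CPM, against 68118 CPM in LAR).

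In pancreas the members moved apart, where 6.94% of all miRNAs were called. The level of miR-365-3p was higher in LAR by 1.35 (SE 0.28, edgeR adjusted p = 0.00114), with medians of 1709 and 481 CPM, and that of miR-193a-3p was lower by -1.28 (SE 0.36, edgeR adjusted p = 0.0177), with medians of 9968 and 22610 CPM. The first was called in 7 of 7 other settings and the second in 6 of 7. Pancreas of TERM held mice of 3 months alone, and age was not a term in this fit. In LAR mice of 3 months (n = 15) the medians were 2019.7 CPM (miR-365-3p) and 9979 CPM (miR-193a-3p). In MAT miR-193a-3p was higher in LAR by 1.73 (SE 0.29, edgeR adjusted p = 9.5e-06), where 26.3% of all miRNAs were called, with 0.85 (edgeR adjusted p = 0.7) in own-profile libraries. The median sum of the 3 exocrine pancreas markers in MAT was 16122 CPM in LAR and 61.1 CPM in TERM, and that of the 5 epithelial markers was 35999 CPM and 1563 CPM. In GAT miR-378a-3p was higher in LAR by 0.78 (SE 0.23, edgeR adjusted p = 0.0427), where 3.50% were called, in 6 of 7 other settings (0.55 to 1.05), the exception being the fit without TMM factors. In lung it was lower in LAR by -2.30 (SE 0.57, edgeR adjusted p = 0.0165), where 2.52% were called, with 0.041 in own-profile libraries.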

How the data were processed

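The authors prepared small RNA libraries with the MGIEasy kit and sequenced them on a BGISEQ500. They counted reads per miRNA with miRMaster 2.0 against GRCm39 and miRBase 22.1. The deposited values were estimated counts per miRNA, not normalised, of which 0.790% carried a fraction (29.4% for miR-365-3p, 0 for the other members) and were rounded. Sample groups, mouse numbers and pools came from the labels, which name 44 pools on 8 plates. The members and all lists were chosen with earlier results of these data known. The filter on low counts worked group by group (1 tissue, arm and extraction). A miRNA passed when 10% or more of any single group reached 5 reads, so with 2 to 10 libraries a group, 1 library could suffice. This left 1353 miRNAs for LAR and 1347 for TERM. Fits of LAR against TERM used the 1427 that passed in either extraction. Counts were normalised by TMM and tested with edgeR 4.0.16 (quasi-likelihood, Benjamini-Hochberg, threshold 0.05) in R 4.3.3, first tested on simulated data. BAT, white fat and muscle were fitted together with arm as a term. Arms and ages were fitted per tissue and extraction, and LAR against TERM per tissue. Tissues of 1 mouse share an animal (median correlation of deviations 0.032 in LAR, 347 pairs, and 0.041 in TERM, 425 pairs). Named miRNAs were the members, the other arms of their precursors, the 3 most like each member over tissues, and the 3 called list miRNAs of largest change in LAR. Own-profile fits left out libraries whose profile correlated best with another tissue. Within a group each library came from another mouse. Sequences came from RefSeq for 3 of the 4 members and 4 of the 5 other arms.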

Additional observations from a re-analysis of the deposited data

Results flagged for a closer look

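In each group of 1 tissue, arm and extraction with 4 to 10 libraries, the highest and lowest libraries were compared with the rest by Dixon's criterion. Of 308 checks 51 stood apart (16.6%, where chance gives about 1 in 20), and 38 of the 51 were libraries closest to another tissue.

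For miR-193a-3p, libraries above their group and closest to another tissue were heart of VGC TERM (571 CPM) and spleen of VGC TERM (10161 CPM). Those below their group were kidney of FL LAR (171 CPM), kidney of VGC TERM (880.3 CPM), liver of HGC LAR (673 CPM), liver of HGC TERM (111 CPM) and lung of FL LAR (90.1 CPM). Own-profile libraries above their group were BAT of HGC TERM (10080 CPM), brain of FL LAR (188 CPM), brain of VGC LAR (822 CPM) and thymus of VGC LAR (6959 CPM).

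For miR-193b-3p, libraries closest to another tissue lay above their group in diaphragm of FL LAR (2774 CPM), kidney of HGC LAR (1247 CPM), liver of FL LAR (388 CPM), spleen of FL TERM (856.5 CPM) and spleen of HGC LAR (3443 CPM). They lay below it in BAT of HGC TERM (127 CPM), diaphragm of VGC TERM (4.44 CPM), GAT of FL TERM (113 CPM), GAT of HGC LAR (186 CPM), SCAT of VGC LAR (72.2 CPM) and thymus of HGC LAR (40.3 CPM). Own-profile libraries below their group were brain of FL LAR (70.7 CPM) and thymus of FL TERM (16.4 CPM).

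For miR-365-3p, libraries closest to another tissue lay above their group in diaphragm of FL LAR (8545 CPM), diaphragm of FL TERM (12485 CPM), heart of FL LAR (1755 CPM), kidney of HGC LAR (14367 CPM), lung of VGC LAR (4444 CPM), spleen of FL TERM (6778 CPM), spleen of HGC LAR (8629.5 CPM) and spleen of HGC TERM (3538 CPM). They lay below it in kidney of VGC TERM (224 CPM), liver of HGC LAR (169 CPM), SCAT of VGC LAR (244 CPM), SCAT of VGC TERM (429 CPM) and thymus of FL LAR (252 CPM). Own-profile libraries apart from their group were pancreas of HGC TERM (1156 CPM, the highest) and pancreas of VGC LAR (746 CPM, the lowest).

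For miR-378a-3p, libraries closest to another tissue lay above their group in lung of FL TERM (686186 CPM), MAT of FL LAR (252679 CPM), MAT of VGC TERM (138689 CPM) and spleen of HGC LAR (436395 CPM), and below it in heart of HGC LAR (4393 CPM), heart of HGC TERM (12714 CPM) and heart of VGC TERM (12762 CPM). The lung library of FL TERM and the spleen library of HGC LAR were both closest to BAT, the tissue highest in miR-378a-3p. Own-profile libraries above their group were GAT of HGC TERM (151310 CPM), liver of FL TERM (59917 CPM), pancreas of VGC LAR (51904 CPM), SCAT of HGC LAR (242518 CPM) and spleen of FL LAR (25143 CPM).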

How the results depend on the processing

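The higher levels of miR-193b-3p (1.82 to 2.72 in LAR and 1.12 to 2.28 in TERM, log2) and miR-378a-3p (1.44 to 2.10 and 1.42 to 2.59) in BAT than in white fat were called under every alternative run. The miR-193a-3p difference from white fat turned to -0.26 in LAR without TMM factors and was called in own-profile libraries (0.61 in LAR and 1.05 in TERM) and, in TERM, without the 11 pools where over 1 in 3 libraries were closest to another tissue (0.95). For miR-365-3p in TERM the call was lost without TMM factors (0.50) and without MAT (0.52). For miR-378a-3p against muscle it was lost in LAR with plate as a covariate (0.45) and, in TERM, with no filter on low counts (0.60). With the animal as a replicate block, miR-378a-3p against muscle gave 0.53 and 0.54. The block changed no other call of BAT against the mean of white fat or of muscle.

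Calls between arms were few under all settings, and the cause of each change was not tested. Between FL and HGC the 1 call became 2 with DESeq2, 3 under a rule of log2 ratio and effect size on CPM, and 0 without TMM factors, without those pools, in own-profile libraries, with age as a covariate and with a Wilcoxon test. Between FL and VGC the 1 call became 2 with DESeq2, 3 under that rule and 0 in those settings, with either other filter, with plate and with a replicate block by mouse number. Between HGC and VGC the 2 calls became 4 under that rule and 0 without TMM factors, without those pools, in own-profile libraries, with plate, with the replicate block, with age and with the Wilcoxon test. Mouse numbers did not pair the arms, since 263 of 653 pairs had a correlation of deviations over 0.1 and 0 of 26 fits had it in every pair. Age calls rose from 4 to 7 in own-profile libraries, and calls of flight by age from 0 to 1 there and to 2 with DESeq2.

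Among named calls, single values that changed sign were miR-193b-3p between HGC and VGC in spleen of LAR (-0.37 without those pools, -0.30 in own-profile libraries, -0.31 to 5.40 in fits without 1 library, the lowest without HGC 16), miR-378a-3p there (-0.12 in own-profile libraries), miR-378a-3p by age in brain of TERM (-0.59 with plate) and miR-378a-3p between LAR and TERM in lung (0.041 in own-profile libraries). By median, BAT moved from place 5 for miR-193a-3p in LAR to 4 with TMM-scaled CPM or without those pools and 3 in own-profile libraries, and in TERM from 4 to 3 with TMM-scaled CPM. For miR-365-3p in TERM it moved from 2 to 1 with TMM-scaled CPM and in own-profile libraries. The FL minus HGC differences of miR-193b-3p, miR-365-3p and miR-378a-3p in BAT of LAR, not called, also changed sign in own-profile libraries (0.20, 0.26 and 0.05). Scaling by the total of 7 RNA classes, and the rule and tissue order on that scale, were not run. The CPM rule and the fits without 1 library outside brain of LAR and pancreas of TERM were chosen after seeing the data. Counts limit the miR-365 5p arms most, with 225 libraries at 0 for miR-365-1-5p.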
